A study of Mus musculus with 12 samples.

Results

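The S100 calcium-binding protein genes were taken as the rows of the deposited expression table whose symbol was S100a1, S100a3, S100a4, S100a6, S100a8, S100a9, S100a10, S100a11, S100a14 or S100a16, and all 10 were found among its 24674 genes. The 12 samples were organoids, miniature epithelial structures grown in three-dimensional culture from basal cells of the wild-type C57BL/6 mouse prostate. There were 3 samples in each of 4 groups, vehicle, UK5099, butyrate and the combination of UK5099 and butyrate, and the labels used here gave no dose, treatment time or animal age. UK5099 is an inhibitor of the carrier that takes pyruvate into mitochondria. Butyrate is a short-chain fatty acid that inhibits histone deacetylases. Every group shared the organoid culture, so none of the samples is untreated tissue, and the labels did not say whether the samples of a group came from separate animals. The p-values therefore measure the spread between these samples, which may be technical.

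S100 proteins are small proteins with paired EF-hand motifs that change shape when they bind calcium and then bind other proteins. S100a8 and S100a9 form calprotectin, which binds calcium, zinc and manganese, is abundant in neutrophils and is also made by stratified epithelia such as stressed or differentiating skin. S100a10 is the partner of annexin A2, S100a11 binds annexin A1, S100a4 binds non-muscle myosin, S100a6 binds calcyclin-binding protein, and S100a1 is best known from heart and skeletal muscle. Most S100 genes lie side by side in the epidermal differentiation complex, a stretch of mouse chromosome 3 that also holds genes of the cornified skin envelope.

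In the combination S100a8 was 60.9 times and S100a9 135 times its vehicle level, each drug alone raised both genes, and S100a1 fell in all 3 treated groups. S100a3 rose with butyrate, and S100a4 rose against vehicle when both drugs were present and less with butyrate alone. The 5 abundant members, S100a6, S100a10, S100a11, S100a14 and S100a16, had no change past the limits in any comparison with vehicle. Across groups the means of log2(TPM + 1), where TPM is the deposited unit, a length-scaled share of all transcripts, spanned 6.24 for S100a9, 5.44 for S100a8, 2.44 for S100a1, 1.52 for S100a4 and 1.10 for S100a3, against 0.73 for S100a6 and 0.17 to 0.43 for the other 4.

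Since S100a8 and S100a9 moved together and S100a1 moved the other way, the bases around their annotated starts are shown, from 250 before to 50 after, from the RefSeq promoters of GRCm38.p6. The capitals mark TATAAA, the TATA box letters. The S100a8 window is chr3:90668821-90669120 on the plus strand, the S100a9 window chr3:90695672-90695971 on the minus strand and the S100a1 window chr3:90514281-90514580 on the minus strand, each written 5′ to 3′ on its gene's strand.
S100a8: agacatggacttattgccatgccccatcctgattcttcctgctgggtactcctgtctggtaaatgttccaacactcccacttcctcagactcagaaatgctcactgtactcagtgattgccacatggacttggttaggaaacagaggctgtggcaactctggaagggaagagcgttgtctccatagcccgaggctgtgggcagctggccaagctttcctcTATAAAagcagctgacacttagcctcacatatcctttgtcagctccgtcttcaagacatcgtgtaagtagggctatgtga
S100a9: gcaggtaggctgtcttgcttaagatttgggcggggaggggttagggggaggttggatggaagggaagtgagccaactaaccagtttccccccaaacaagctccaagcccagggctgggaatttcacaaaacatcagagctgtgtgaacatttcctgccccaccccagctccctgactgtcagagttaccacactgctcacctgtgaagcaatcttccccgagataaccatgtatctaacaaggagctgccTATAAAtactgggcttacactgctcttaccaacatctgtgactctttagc
S100a1: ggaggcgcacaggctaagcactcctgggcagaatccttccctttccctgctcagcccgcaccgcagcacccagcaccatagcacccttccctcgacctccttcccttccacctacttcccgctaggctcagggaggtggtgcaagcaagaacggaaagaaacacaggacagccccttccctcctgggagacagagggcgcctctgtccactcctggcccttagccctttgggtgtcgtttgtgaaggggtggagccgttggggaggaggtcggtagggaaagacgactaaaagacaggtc
TATAAA began 30 bases before the annotated start in S100a8, on the first base of the annotated start in S100a9, and was not among the 300 bases of S100a1. Windows were found for 8 of the 10 members, 12 windows in all, with no entry matched for S100a10 and S100a14. On either strand TATAAA was in 1 window each of S100a3, S100a4, S100a8 and S100a9, and in 13.6% of all 32851 mouse promoter windows. The AP-1 letters TGANTCA were found in S100a11 and S100a16 (7.81% of all windows), GCAAT, part of a C/EBP site, in S100a3, S100a8 and S100a9 (26.4%), and the GC box GGGCGG in S100a3, S100a9, S100a11 and S100a16 (35.7%). CCAATAAA, a HOXB13 site, was in none of the members' windows and in 1.12% of all windows. The motifs were chosen with the expression values known, and S100a3 had several windows in which to find one.

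Each sample held 33251852 to 43498958 fragments, recovered from the steps between the deposited values. UK5099 replicate 1 and combination replicate 1 stood apart from their groups, with a chi-square per degree of freedom of 6.30 to 6.65 against the other replicates, where the other pairs gave 1.93 to 2.65. With both left out every count of members called stayed the same. The labelled origin was checked by its markers. The 5 basal markers (Krt5, Krt14, Krt15, Trp63 and Itga6) summed to 6531 to 6657 TPM in vehicle, 13496 to 13878 with UK5099, 6920 to 7158 with butyrate and 9983 to 10391 in the combination. The 5 luminal markers summed to 4616 to 4801, 2737 to 2889, 2691 to 2725 and 1694 to 1914 TPM in the same order, and all 5 had coefficients below 0 in each treated group. The basal markers did not move as 1: with UK5099 all 5 had coefficients above 0, with butyrate Krt5 (0.77) and Trp63 (0.60) were above 0 and Krt14 (−0.27), Krt15 (−0.32) and Itga6 (−0.19) below, and in the combination Krt15 alone was below (−0.65). These marker coefficients are from the TPM as deposited, where genes averaging 1 TPM or more had a median of −0.12, −0.30 and −0.41 in UK5099, butyrate and combination samples against vehicle. The markers' signs on other scalings are not reported, so the small ones are uncertain. The part of these epithelial markers in the S100 results was not tested. In such bulk samples fewer cells of a type and less RNA per cell cannot be told apart.

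Differences below are coefficients of a limma model on log2(TPM + 1) across all genes, and a gene was called when its Benjamini-Hochberg adjusted p was under 0.01 and its coefficient was over 1 in size. The count of calls for the 10 members can be read against all genes. In UK5099 against vehicle 2 members rose and 1 fell, where 0.928% of all genes rose and 0.912% fell. In butyrate against vehicle 3 rose and 1 fell, against 1.13% and 2.42% of all genes. In combination against vehicle 3 rose and 1 fell, against 1.79% and 4.63%. The median coefficient of the members was 0.06, −0.12 and −0.04 in these comparisons, and that of all 24674 genes fitted was −0.03, −0.07 and −0.11, so the members' median was below it with butyrate and above it in the other 2. Over the 13345 genes that averaged 1 TPM or more the median was −0.12, −0.30 and −0.41, below that of the members in all 3.

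**Figure D1:**
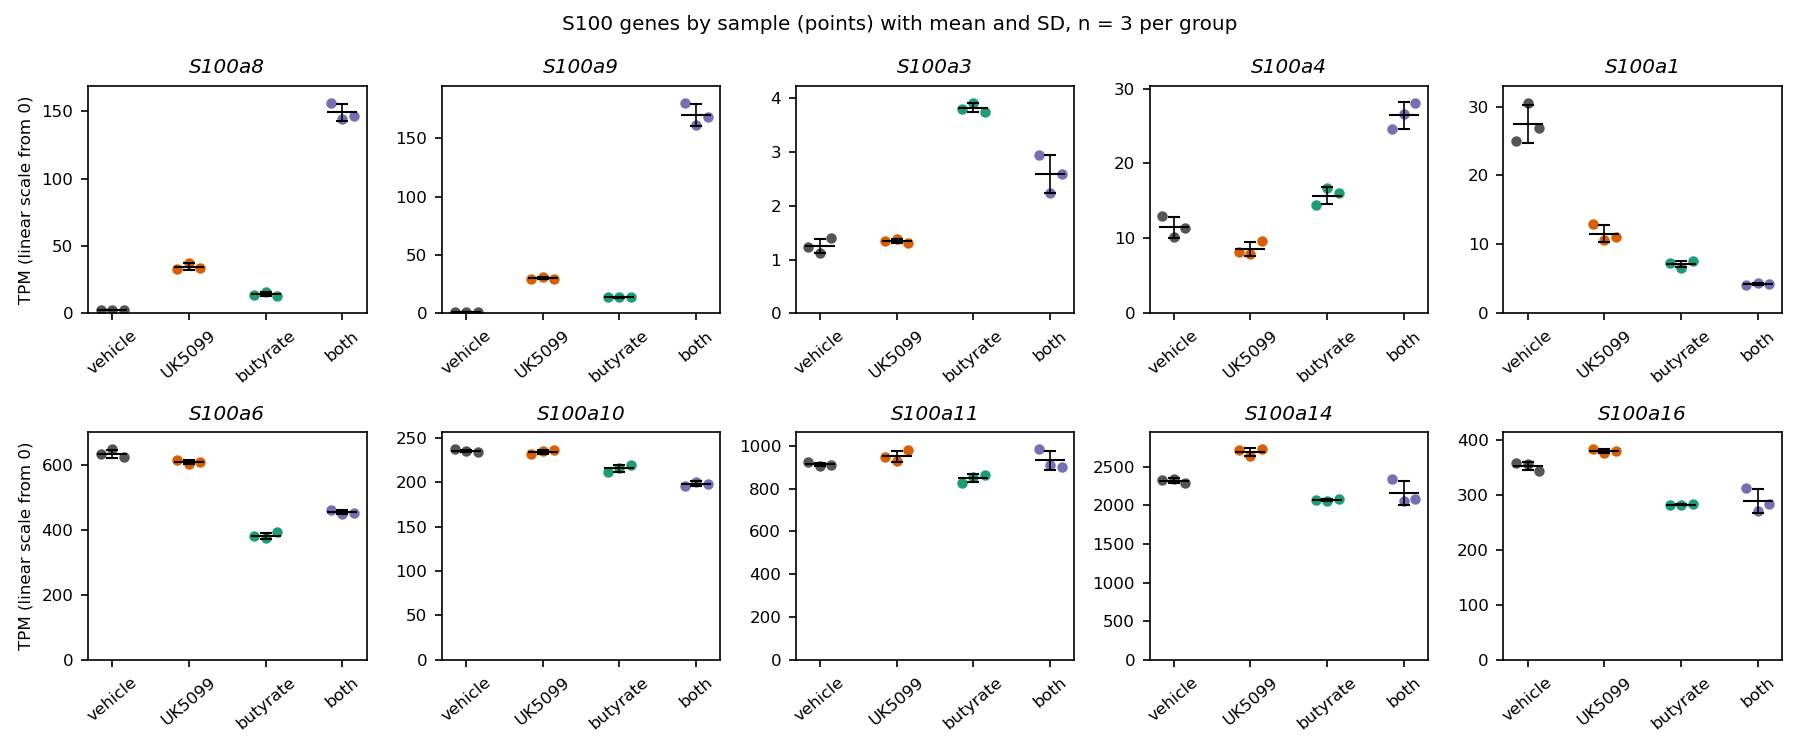
TPM of the 10 S100 genes by sample, on linear axes from 0, with the mean and SD of the 3 samples of each group as horizontal line and bar. S100a8 and S100a9 are near the floor of their panels in vehicle and reach 144 to 181 TPM in the combination, S100a1 falls from 25.04 to 30.5 TPM in vehicle to 4.10 to 4.35, and in the lower row S100a6 is lowest with butyrate, at 373 to 392 TPM.

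**Figure D2:**
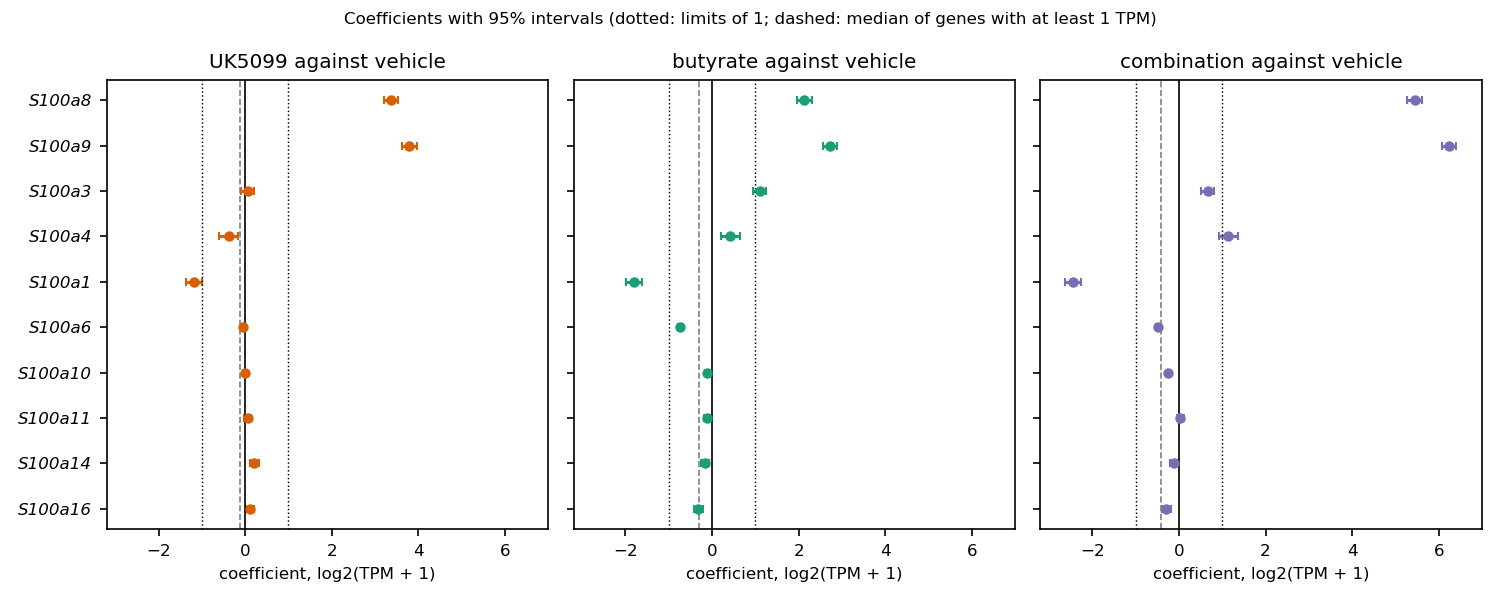
Coefficients on log2(TPM + 1) of the 10 S100 genes in each treated group against vehicle, with 95% intervals, dotted lines at the limits of 1 in size and a dashed line at the median of genes averaging 1 TPM or more. S100a8 and S100a9 lie far to the right in all 3 panels and S100a1 to the left of −1, while the 5 abundant genes stay between −0.73 and 0.21.

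The calprotectin genes were the members that changed most. S100a8 (ENSMUSG00000056054, chr3:90576285-90577342, plus strand, in the coordinates of the deposited table, for which the submitters' processing notes name GRCm39) measured 2.57, 2.50 and 2.27 TPM in the vehicle samples, from 17 to 20 fragments each. With UK5099 it measured 33.0, 37.4 and 33.5 TPM, with butyrate 13.6, 15.9 and 12.96 TPM, and in the combination 156, 144 and 147 TPM. The 4 groups did not overlap, and their order from low to high was vehicle, butyrate, UK5099 and combination. Against vehicle the coefficient was 3.37 ± 0.08 (SE) in UK5099 samples, 2.13 ± 0.08 in butyrate samples and 5.44 ± 0.08 in combination samples, with limma adjusted p of 2.86e-09, 1.28e-08 and 3.92e-11.

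S100a9, the larger calprotectin subunit (ENSMUSG00000056071, chr3:90599939-90603028, minus strand), measured 1.27, 1.01 and 1.51 TPM in vehicle, from 20 to 39 fragments each. It measured 29.7, 31.5 and 29.7 TPM with UK5099, 13.8, 13.6 and 14.2 TPM with butyrate, and 180.5, 162 and 168 TPM in the combination. Its groups were in the same order as those of S100a8, again with no overlap. The coefficients against vehicle were 3.80 ± 0.07 (SE), 2.72 ± 0.07 and 6.24 ± 0.07, with limma adjusted p of 1.25e-09, 2.49e-09 and 1.71e-11. Because both genes were low in vehicle, the added 1 TPM shortens their differences: the ratio of mean TPM was 14.2, 5.79 and 60.9 for S100a8 and 24.0, 10.99 and 135 for S100a9. Pairing single samples in every way gave ratios of 56.2 to 68.9 for S100a8 and 107 to 179 for S100a9 in the combination.

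Both single treatments also differed from each other. S100a8 was lower with butyrate than with UK5099 by a coefficient of −1.24 (limma adjusted p = 9.1e-07) and S100a9 by −1.07 (1.87e-06). In that comparison 0.681% of all genes were called higher with butyrate and 1.18% lower, and among the members 1 was higher, S100a3, and 2 were lower. The S100a9 difference was −0.83 to −0.93 under 4 other scalings and the S100a8 difference −0.99 under quantile normalisation, short of the limit of 1, although the adjusted p stayed under 0.01. Adding UK5099 to butyrate raised S100a8 by 3.31 and S100a9 by 3.52, the only 2 members called in combination against butyrate, where 0.551% of all genes rose and 0.357% fell.

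For both genes the combination was above each drug alone, and how it compared with the summed or multiplied single effects depended on the scale. On linear TPM, vehicle plus the change with each drug came to 46.3 ± 1.65 (SE) for S100a8 and 42.9 ± 0.64 for S100a9, and all 3 combination samples of each gene were above that sum, at means of 149 and 170.05 TPM. The product of the ratios to vehicle came to 200.3 TPM for S100a8 and 333 TPM for S100a9, above every combination sample. On log2(TPM + 1) the interaction coefficient of S100a8 was −0.06 (95% interval −0.30 to 0.19, limma adjusted p = 0.81). That of S100a9 was −0.27 (−0.51 to −0.04, limma adjusted p = 0.1), which ranged from −0.98 to −0.16 over 23 alternatives with adjusted p from 0.00366 to 0.353, and was under 0.01 in 5 of them, including the smaller pseudocounts. No test was run on the linear sum.

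**Figure D3:**
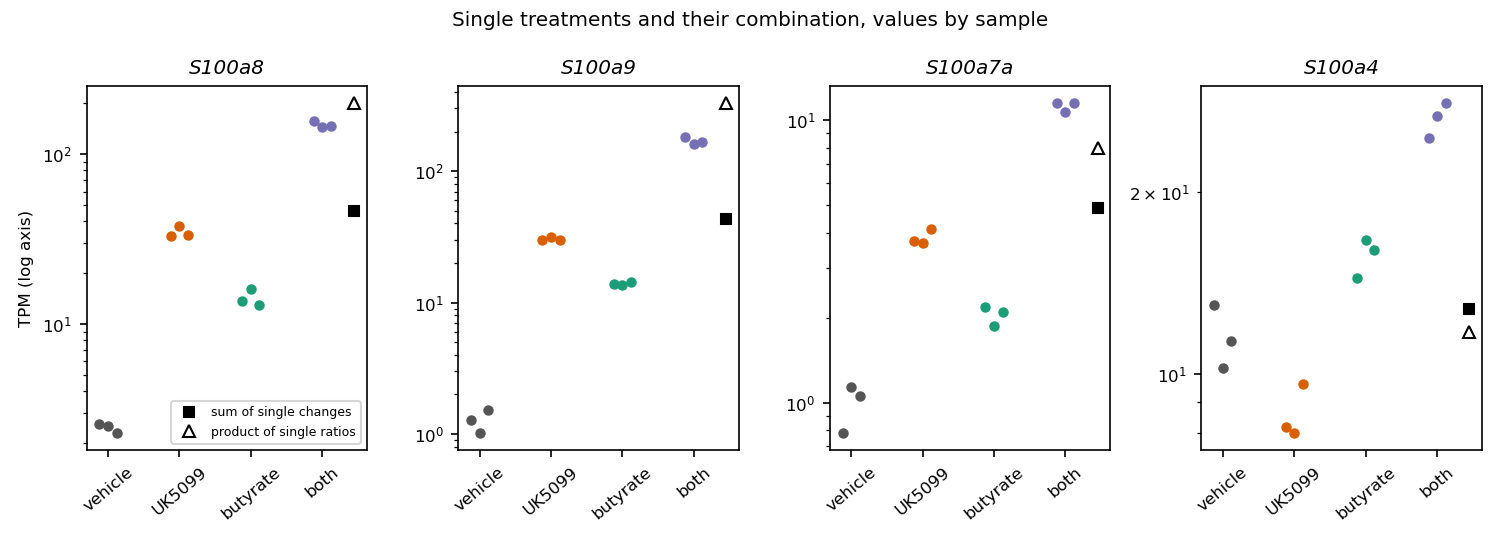
TPM by sample on log axes for S100a8, S100a9, S100a7a and S100a4, with the linear sum of the single changes (filled square) and the product of the single ratios (open triangle) beside the combination samples. The S100a8 and S100a9 samples in the combination lie between the square and the triangle, and those of S100a7a and S100a4 lie above both.

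The balance of S100a8 and S100a9 RNA also moved, though no test was run on it. The ratio of S100a8 to S100a9 fragments was 0.685 ± 0.169 (SD, n = 3) in vehicle, 0.391 ± 0.0135 with UK5099, 0.350 ± 0.0451 with butyrate and 0.300 ± 0.00519 in the combination. The vehicle ratio ranged from 0.513 to 0.850 and lay above all 9 treated samples, though it rests on 17 to 39 fragments per gene and sample. Together both genes took 0.0302% of the fragments of the 10 members in vehicle, 0.582% with UK5099, 0.336% with butyrate and 3.56% in the combination. The 10 members held 0.417%, 0.460%, 0.416% and 0.487% of all fragments, and the 5 abundant members still took 95.8% of them in the combination.

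Because calprotectin is a neutrophil product, neutrophil markers were read beside it. Values were had for 4 of the 10 neutrophil markers, Ly6g, Cxcr2, Ltf and Itgam. Their sum was 7.20 to 7.64 TPM in vehicle, 8.50 to 9.96 with UK5099, 7.27 to 8.27 with butyrate and 3.54 to 3.92 in the combination. Itgam stayed at or under 0.0205 TPM, and Ptprc, which marks leukocytes at large, at or under 0.00425 TPM in every sample, with at least 1 sample at 0 in vehicle, UK5099 and the combination. The neutrophil sum was mostly Ltf and Cxcr2, which went opposite ways from vehicle to the combination. Ltf averaged 5.61, 3.35, 6.68 and 1.27 TPM in vehicle, UK5099, butyrate and combination samples, and Cxcr2 1.27, 5.69, 0.982 and 2.42 TPM. The rest of the neutrophil list, Camp, Csf3r, Elane, Mpo, Ngp and Retnlg, had no row to read, where the least covered row held 10 fragments over all samples. The cell source of S100a8 and S100a9 was not tested. The 3 macrophage markers measured, of 7, summed to 234 to 244 TPM in vehicle and 83.9 to 111 TPM in the treated groups, and almost all of it was Cd14 and Cd68, which went opposite ways. Cd14 averaged 215.1, 57.6, 30.7 and 14.5 TPM in vehicle, UK5099, butyrate and combination samples, and Cd68 24.2, 30.2, 67.4 and 91.7 TPM, while Csf1r stayed at or under 0.0236 TPM. The 6 fibroblast markers summed to 10.5 to 10.8 TPM with butyrate and 2.19 to 2.86 TPM elsewhere. Dcn carried that difference, at 9.51 TPM with butyrate and 0.762 TPM in vehicle, while Col1a1 averaged 0.713 and 1.01 TPM and Acta2 0.00756 and 0.145 TPM. The 3 endothelial markers summed to at most 0.0415 TPM.

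S100a1 (ENSMUSG00000044080, chr3:90418341-90421699, minus strand) moved the other way. It measured 25.04, 30.5 and 26.9 TPM in vehicle, 12.9, 10.7 and 11.05 with UK5099, 7.28, 6.60 and 7.55 with butyrate and 4.10, 4.35 and 4.21 in the combination. The groups did not overlap, and all 12 values were whole fragments within 0.02 of a fragment. The coefficients against vehicle were −1.18 ± 0.08 (SE), −1.80 ± 0.08 and −2.44 ± 0.08, with limma adjusted p of 3.16e-06, 6.79e-08 and 5.33e-09. In ratios of mean TPM, S100a1 was 2.38, 3.85 and 6.51 times lower than vehicle. The interaction was 0.54 (95% interval 0.27 to 0.81, limma adjusted p = 0.0102), on the other side of 0.01 in 5 of 23 alternatives. Its neighbour S100a13, whose span starts 43 bp away on the opposite strand, had coefficients of −0.70, −0.66 and −0.62 in the same comparisons, with adjusted p under 0.01 but short of the limit of 1. Whether fragments were counted by strand is not given in the sources used here.

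S100a4, a metastasis-linked regulator of cell motility (ENSMUSG00000001020, chr3:90511078-90513352, plus strand), measured 13.01, 10.2 and 11.3 TPM in vehicle, 8.18, 7.97 and 9.62 with UK5099, 14.4, 16.7 and 16.05 with butyrate and 24.6, 26.7 and 28.1 in the combination. All UK5099 samples were below all vehicle samples, and all combination samples were above all butyrate samples. Butyrate alone was 0.42 above vehicle (limma adjusted p = 0.00434), short of the limit of 1, or 1.36 times in TPM without overlap. That adjusted p was under 0.01 in 19 of 24 alternatives. The coefficient of UK5099 was −0.38 ± 0.10 (SE, limma adjusted p = 0.0103) without butyrate and 0.72 ± 0.10 (0.000333) with it, neither past both limits. The difference between these effects, the interaction, was 1.10 ± 0.14 (limma adjusted p = 0.000419), the only interaction called among the members, where 1.01% of all genes were called in either direction. Against vehicle the combination raised S100a4 by 1.14 ± 0.10 (limma adjusted p = 3.48e-06), or 2.30 times in TPM, and against UK5099 by 1.52 ± 0.10 (7.37e-07). In combination against UK5099 S100a4, S100a8 and S100a9 rose, the last pair by 2.08 and 2.45, and S100a1 fell by 1.26, against 0.823% of all genes higher and 1.15% lower. The S100a1 difference was −0.99 and −0.97 with median of ratios and quantile scaling.

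S100a3, best known from the hair cuticle (ENSMUSG00000001021, chr3:90491966-90510009, plus strand), was low throughout. It measured 1.24, 1.12 and 1.39 TPM in vehicle, 1.35, 1.39 and 1.31 with UK5099, 3.79, 3.91 and 3.75 with butyrate and 2.94, 2.23 and 2.59 in the combination. The UK5099 samples lay within the vehicle range, butyrate was highest, and the combination lay between butyrate and vehicle without overlap. Butyrate raised S100a3 by 1.10 ± 0.07 (SE, limma adjusted p = 4.18e-07), a ratio of 3.05 in TPM, and by 1.04 against UK5099. The combination was 0.67 above vehicle (adjusted p = 1.18e-05 in limma), short of the limit of 1, and −0.43 from butyrate (0.000794). The added 1 TPM shortens such differences of a low gene. In TPM the combination was 2.07 times vehicle, and its coefficient against vehicle ranged from 0.60 to 1.42 over the alternatives. The span of S100a3 shares 6873 bp with that of S100a2 on the same strand, and 6 of its 12 values were not whole fragments, so its level is less certain than that of the other low members.

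No abundant member passed both limits against vehicle. Among them S100a6, or calcyclin (ENSMUSG00000001025, chr3:90520189-90531488, plus strand), moved most, at 632, 647 and 623 TPM in vehicle, 615, 603 and 608 with UK5099, 380.1, 373 and 392 with butyrate and 462, 449 and 452 in the combination. The groups did not overlap. Butyrate was 0.73 below vehicle on the log2 scale (−0.73 ± 0.02 SE, limma adjusted p = 4.17e-09), short of the limit of 1, and the difference was −0.75 to −0.41 over all alternatives. In the combination it was −0.48 ± 0.02 against vehicle (limma adjusted p = 3.06e-08), but −0.02 with median of ratios scaling (0.587). The combination was 0.25 above butyrate (limma adjusted p = 1.97e-05), and the interaction of 0.31 had an adjusted p of 9.87e-05 in limma.

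S100a14 and S100a16, a pair of epithelial members lying next to each other, measured 2283 to 2343 and 343 to 357 TPM in vehicle. With UK5099 they measured 2635 to 2724 and 376 to 382 TPM, with butyrate 2052 to 2085 and 281 to 282 TPM, and in the combination 2052 to 2335 and 269.7 to 312 TPM. UK5099 samples were the highest of both genes, and the top combination value of both was replicate 1, the library that stood apart. S100a14 had a coefficient of 0.21 ± 0.04 (SE, limma adjusted p = 0.00258) with UK5099 and S100a16 0.11 ± 0.04 (0.0799), both above 0 on every scaling. With butyrate they were −0.17 and −0.32, but S100a14 turned to 0.15 with median of ratios scaling and S100a16 to −0.0033. In the combination they were −0.11 and −0.29, and with median of ratios scaling 0.36 and 0.17. Without combination replicate 1 they were −0.17 and −0.35.

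S100a10 and S100a11, the annexin partners, lie at the far end of the region and spanned the least on the TPM as deposited. S100a10 measured 234 to 237 TPM in vehicle, 232 to 236 with UK5099, 211 to 219 with butyrate and 196 to 201 in the combination. S100a11 measured 906 to 922, 928 to 978, 826 to 864 and 901 to 983 TPM. S100a10 had coefficients of −0.01, −0.13 and −0.25 against vehicle, which became 0.14, 0.19 and 0.22 with median of ratios scaling. S100a11 had 0.06, −0.11 and 0.03, which became 0.21, 0.21 and 0.49. For these genes the sign against vehicle therefore turned with the scaling in 3 and 1 of the 3 comparisons.

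**Figure D4:**
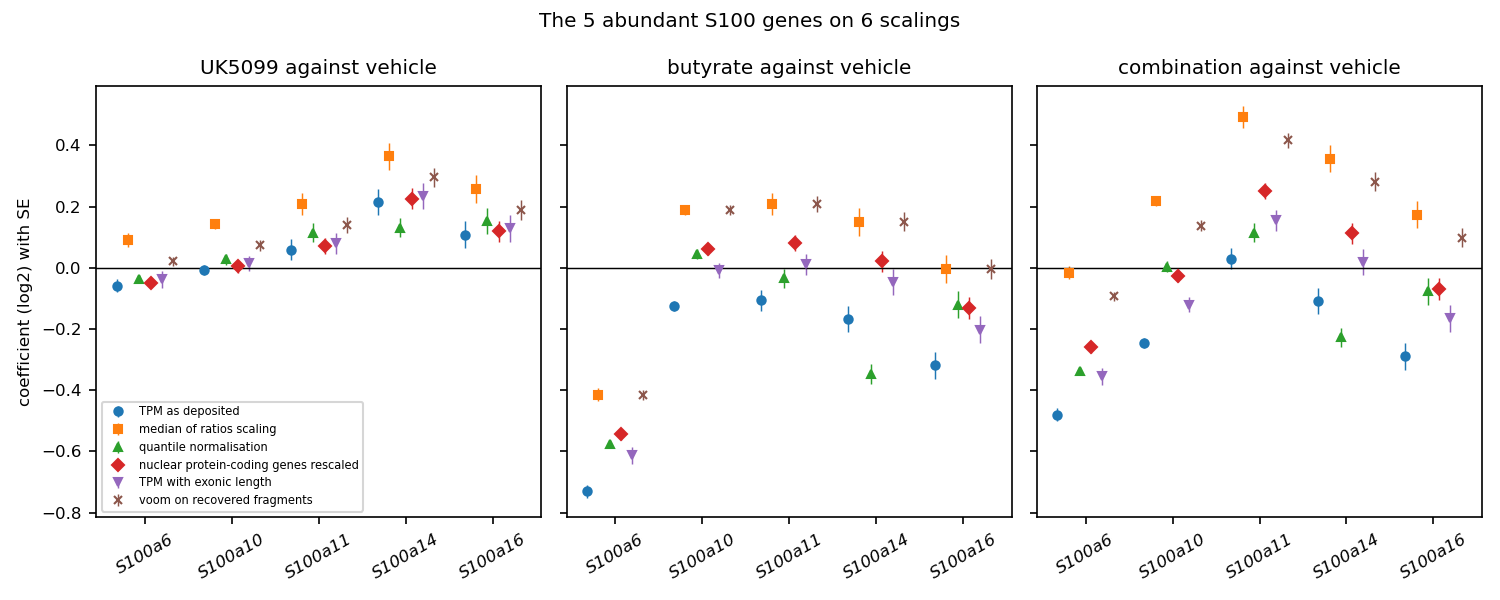
Coefficients with SE of the 5 abundant S100 genes in each treated group against vehicle, from the TPM as deposited and from 5 other scalings. Butyrate lies below 0 for S100a6 on every scaling, while S100a10, S100a11 and S100a14 stand on both sides of 0 in the butyrate panel and S100a10, S100a14 and S100a16 in the combination panel.

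With the adjusted p alone and no limit on size, 4 members passed in UK5099, 9 in butyrate and 8 in combination samples against vehicle, where 33%, 45.6% and 51% of all genes did. For the interaction 4 passed, against 13.4%, for combination against butyrate 7 against 27.5%, for combination against UK5099 9 against 43%, and for butyrate against UK5099 10 against 37.5%.

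Comparing levels between genes needs the length of the processed transcript, and the deposited values divide by the whole gene span. The exonic length used here merged the annotated exons of all transcripts of a gene, so it may exceed the transcript present. It was 511 bp for S100a11, 1367 bp for S100a6 and 1727 bp for S100a14. Recomputed per exonic length and rescaled to the same total, the vehicle order was S100a11 at 5836 ± 41.8 (SD, n = 3), S100a6 at 2953 ± 51.0, S100a14 at 1500 ± 14.3, S100a10 at 1046 ± 3.80 and S100a16 at 723 ± 11.8. Far below were S100a1 at 75.0 ± 7.67, S100a4 at 25.3 ± 3.04, S100a9 at 4.22 ± 0.856, S100a3 at 2.25 ± 0.255 and S100a8 at 2.10 ± 0.127. Neighbours in this order were apart by more than their SDs except S100a3 and S100a8. The SDs cover the samples and not the choice of length, on which the order depends. The exonic length of S100a3 is also uncertain, since its reference gene model differs from that of the table. In the combination S100a9 reached 619 ± 31.6 and S100a8 140 ± 5.06 on the same scale, which put S100a9 beside S100a16 at 646 ± 44.8, within their SDs.

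The rest of the family and its neighbourhood were read from lists. Of 6 further S100 genes measured, S100a7a, a relative of psoriasin, was the one called: it measured 0.779, 1.14 and 1.06 TPM in vehicle, 3.74, 3.67 and 4.13 with UK5099, 2.19, 1.87 and 2.09 with butyrate and 11.5, 10.7 and 11.6 in the combination. Its coefficients were 1.29, 0.62 and 2.62, with the butyrate value short of the limit, and the interaction was 0.72 (limma adjusted p = 0.000899). S100a7a was low in vehicle, where the added 1 TPM shortens differences, and its ratios of mean TPM were 3.88, 2.07 and 11.3. S100a2, S100a13, S100b, S100g and S100z were not called in any comparison with vehicle. S100a2, whose span overlaps that of S100a3, averaged 0.0964 TPM in vehicle, so the added 1 TPM shortens its differences. Its ratio of mean TPM to vehicle was 2.79 with butyrate and 2.05 in the combination, both without overlap, and 1.20 with UK5099, with overlap. Of 6 fused-type S100 genes measured, which carry an S100 domain at the start of a long cornified envelope protein, 3 rose with UK5099, 3 with butyrate and 4 in the combination, and none fell. Of all genes 0.928%, 1.13% and 1.79% rose in these comparisons. Repetin (Rptn) had coefficients of 2.65, 2.67 and 6.23, cornulin (Crnn) 3.44, 4.69 and 4.72, filaggrin (Flg) 1.47, 0.77 and 3.00, and trichohyalin (Tchh) 0.77, 1.09 and 1.89. The Flg butyrate and Tchh UK5099 values were short of the limit, and Flg2 and Hrnr were not called. Flg, Rptn and Hrnr had 7, 7 and 2 fragments over the vehicle samples, so the added 1 TPM shortens their differences. In ratios of mean TPM Flg was 114, 45.4 and 448 times vehicle, Rptn 104, 105 and 1452 times and Crnn 11.7, 27.8 and 28.5 times. The few vehicle fragments leave the Flg and Rptn ratios imprecise. Pairing single samples gave 346 to 595 for Flg and 820 to 3632.5 for Rptn in the combination. Hrnr had coefficients of 0.23, 0.29 and 0.41, with limma adjusted p of 0.00468, 0.00067 and 5.64e-05.

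Of 11 partners and receptors measured none rose, and Plat, tissue plasminogen activator, fell in all 3 comparisons with vehicle (−1.36, −1.25 and −1.46). In these comparisons 0.928%, 1.13% and 1.79% of all genes rose and 0.912%, 2.42% and 4.63% fell. Myh9, the non-muscle myosin heavy chain bound by S100a4, fell with butyrate (−1.05) and in the combination (−1.11) and was −0.27 with UK5099. Anxa2, the partner of S100a10, had coefficients of 0.26, −0.11 and 0.17, Anxa1, the partner of S100a11, −0.13, −0.12 and −0.83, and Cacybp, the partner of S100a6, −0.19, −0.55 and −0.64. The calprotectin receptor Tlr4 had −0.30, −0.25 and −0.44, Ager −0.22, −0.17 and −0.26, and Bsg, another S100a9 receptor, −0.66, 0.18 and −0.42, none of them past both limits.

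All 10 members lie on chromosome 3, between bases 90418341 and 93471950 of the deposited coordinates, in a region with 51 protein-coding genes in the table. Of the 41 that are not members, 15 rose and none fell with UK5099, 9 rose and 3 fell with butyrate, and 20 rose and none fell in the combination. Of all genes 0.928% rose and 0.912% fell with UK5099, 1.13% and 2.42% with butyrate, and 1.79% and 4.63% in the combination. The median coefficient over these 41 genes was 0.28, 0.21 and 0.98. S100a8 and S100a9 are separated by 22596 bp, and the next protein-coding gene beyond S100a9 is Pglyrp4, a peptidoglycan-recognition gene that was 3.20 higher in the combination. S100a10 and S100a11 close the other end of the region beyond Rptn and Crnn.

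**Figure D5:**
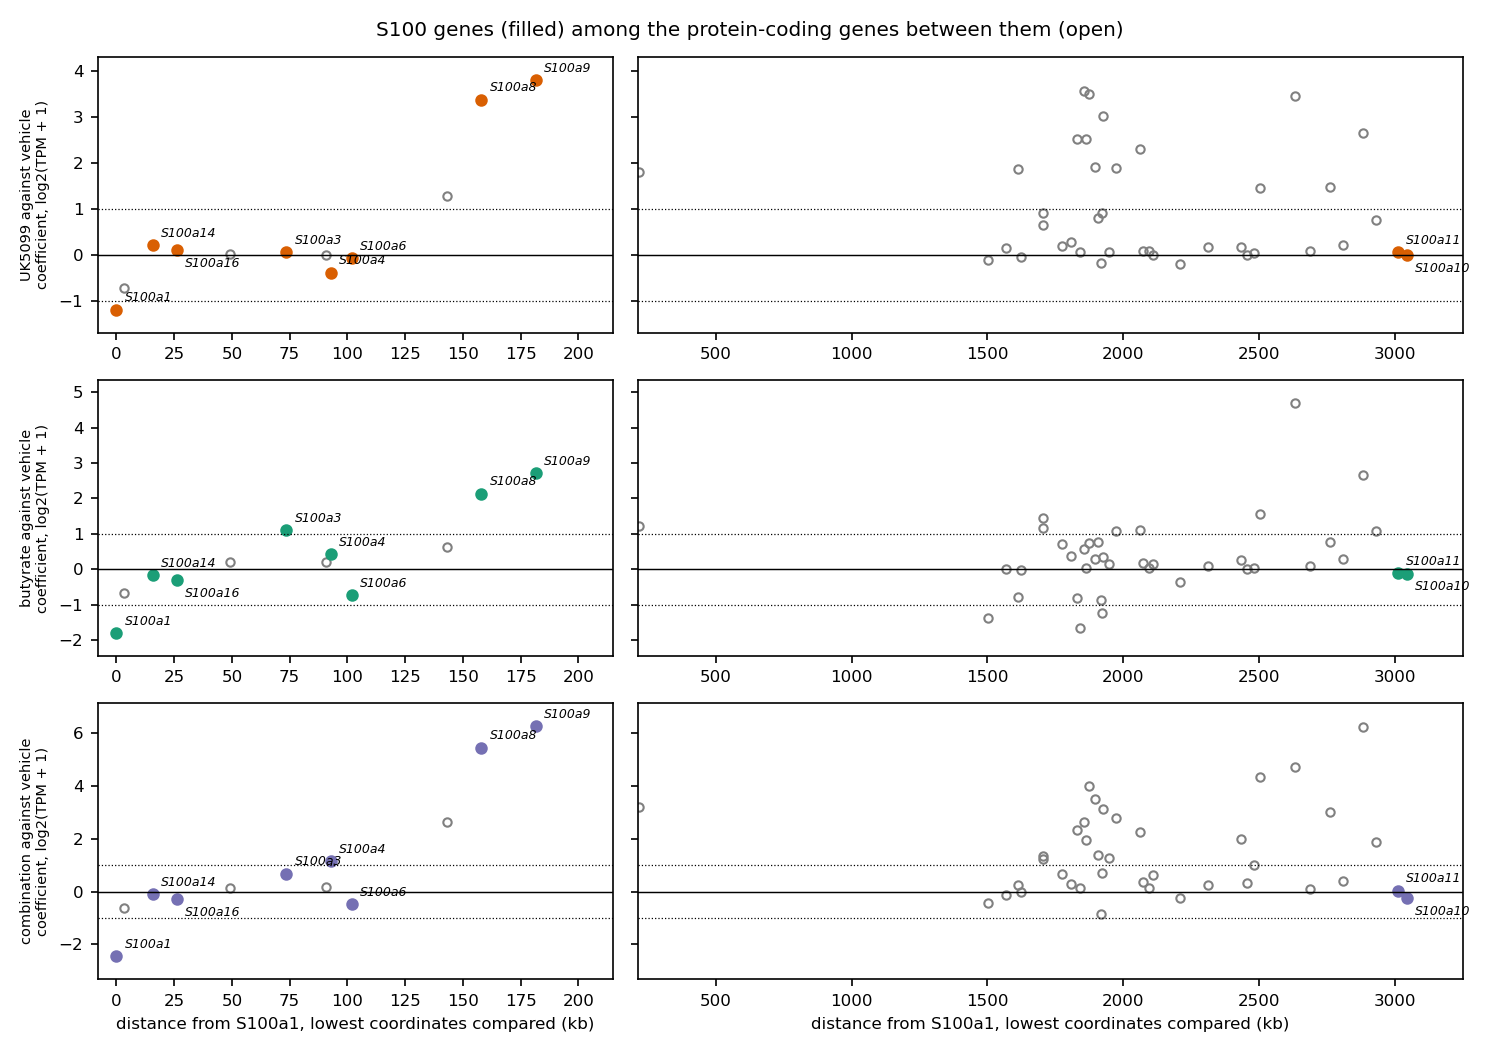
Coefficients on log2(TPM + 1) against vehicle for UK5099, butyrate and the combination (rows) along chromosome 3, by distance in kb from S100a1, with S100 genes filled and other protein-coding genes open; the left panels enlarge the S100a1 to S100a9 cluster. S100a8 and S100a9, at 158 and 182 kb, are the highest of the cluster in every row, S100a1 is the lowest, and S100a10 and S100a11 sit near 0 among genes that rose.

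Among 1468 candidate genes, the patterns closest to S100a9 over the 12 samples were those of Cstdc5 (r = 0.997), Fads2b (0.992) and Cers3 (0.992), by Pearson's r on log2(TPM + 1). For S100a8 they were Calm4 (0.994), Il36g (0.992) and Pglyrp4 (0.992), and for S100a1 Cx3cl1 (0.996), Ogfr (0.996) and Wdr6 (0.995). Cstdc5 averaged 0.368 ± 0.147 TPM (SD, n = 3) in vehicle, 46.4 ± 2.02 with UK5099, 21.3 ± 0.580 with butyrate and 389 ± 48.9 in the combination, the same order as S100a9. Calm4 averaged 0.1002, 22.8, 4.85 and 95.3 TPM. Cx3cl1, a membrane-bound chemokine, averaged 49.4, 21.4, 14.5 and 9.07 TPM, in the order of S100a1. These r values are set by the 4 groups and rest on samples that share them.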

How the data were processed

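Organoids from basal cells of the mouse prostate were profiled by RNA sequencing after rRNA depletion, with paired reads on a strand-marking kit per the labels. The study's methods instead describe messenger RNA enrichment, and they also give paired-end reads for this experiment. The authors deposited 1 table of TPM, scaled to the same total in every column. Its values behave as fragments divided by the whole gene span, introns included. The submitters' processing notes name STAR 2.7.9a, Partek and GRCm39, while the study's methods name RSEM on GRCm38. Of the mitochondrial genes 25 of 25 but only 2.08% of nuclear genes lay at their GRCm38 position, so no coordinate of the table was combined with the reference, from which exonic lengths (96.9% of genes matched by identifier) and promoters were read.

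Fragments per gene were recovered from the steps between low values: 75.4% to 76.7% of protein-coding values under 1000 fragments were whole within 0.02. The fit used limma 3.58.1 in R 4.3.3 on log2(TPM + 1) over all 24674 genes and 12 samples, with UK5099, butyrate and their interaction as terms and no filter. Fold changes are on that scale, which understates changes of low genes. The limits, adjusted p under 0.01 and a coefficient over 1, follow the study. The pseudocount was chosen here. The script was tested on simulated data. Alternatives were other pseudocounts, a filter at a mean of 1 TPM, other scalings, voom on the recovered fragments, other priors and limits, a replicate block, and leaving out samples. Intervals cover the spread between samples. Python 3.11.15 with numpy 2.4.6 and pandas 2.3.3 was used for the rest.

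Genes were named as the 10 members, the listed relatives, partners and markers that the text discusses, and the 3 genes closest in pattern to S100a8, S100a9 and S100a1. The members and lists were chosen with earlier results of these data known.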

Additional observations from a re-analysis of the deposited data

Results flagged for a closer look

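In 4 members UK5099 had another effect beside butyrate than alone, by the interaction term in limma with an adjusted p under 0.01. S100a4 had an interaction of 1.10: UK5099 samples were below vehicle (7.97 to 9.62 against 10.2 to 13.01 TPM) and combination samples above butyrate (24.6 to 28.1 against 14.4 to 16.7 TPM), and the adjusted p was under 0.01 in all 23 alternatives. S100a3 had an interaction of −0.49: UK5099 lay within the vehicle range, and the combination lay below butyrate by −0.43, with the adjusted p under 0.01 in 12 of 23 alternatives and at most 0.0158. S100a6 had an interaction of 0.31, with the combination at 449 to 462 TPM above butyrate at 373 to 392 TPM, and it held in all 23 alternatives. S100a10 had an interaction of −0.11, with the combination at 196 to 201 TPM below butyrate at 211 to 219 TPM, and the adjusted p was under 0.01 in 6 of 23 alternatives and at most 0.0877.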

How the results depend on the processing

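The coefficients of S100a8 and S100a9 against vehicle kept their direction and their side of the limits in all 156 values compared, S100a8 in the combination ranging from 5.41 to 6.29 and S100a9 from 6.16 to 7.43. The alternatives that only loosen a limit reuse the reported fit, so a gene already called could not differ in them. Of 1810 member values over 26 alternatives, 1715 kept direction and side, 7 lost a call through the limit on size, 37 gained one and 51 changed sign. Many of the gained calls came where the limit on size was dropped. Counts of members called were within 1.5 times of those reported except without a limit on size, where they became 9 for butyrate, 8 for the combination, 4 for the interaction, 7 for combination against butyrate, 9 for combination against UK5099 and 10 for butyrate against UK5099. Those counts follow from dropping the limit, since that alternative reuses the reported fit. The cause of the changes of sign was not tested.

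With median of ratios scaling S100a6 was 0.091 for UK5099, S100a10 0.14, 0.19 and 0.22 for UK5099, butyrate and the combination, S100a11 0.21 for butyrate, S100a14 0.15 and 0.36 for butyrate and the combination, S100a16 0.17 for the combination, and the S100a8 interaction 0.019. Between treated groups S100a10 was 0.028 for combination against butyrate, 0.074 for combination against UK5099 and 0.046 for butyrate against UK5099, and S100a11 was 0.29 for combination against UK5099 and 0.00074 for butyrate against UK5099. With voom on recovered fragments S100a6 was 0.021 and S100a10 0.074 for UK5099, S100a11 0.21, S100a10 0.19 and S100a14 0.15 for butyrate, S100a10 0.14, S100a14 0.28 and S100a16 0.099 for the combination, S100a11 0.28 and S100a10 0.064 for combination against UK5099, and S100a11 0.069 and S100a10 0.11 for butyrate against UK5099. Rescaled over nuclear protein-coding genes, S100a10 was 0.0047 for UK5099, S100a11 0.082, S100a10 0.061 and S100a14 0.022 for butyrate, S100a14 0.11 for the combination, S100a11 0.18 for combination against UK5099, and S100a11 0.011 and S100a10 0.056 for butyrate against UK5099. With quantile normalisation S100a10 was 0.027, 0.045 and 0.0042 for UK5099, butyrate and the combination and 0.018 for butyrate against UK5099. With exonic length S100a10 was 0.015 for UK5099, S100a11 0.012 for butyrate, S100a14 0.018 for the combination and S100a11 0.075 for combination against UK5099. The scalings differed in the median against vehicle of the genes averaging 1 TPM or more. That median was −0.12, −0.30 and −0.41 as deposited and 0.00, −0.03 and −0.03 with median of ratios scaling. Over such genes in each setting it was −0.14, −0.18 and −0.30 for nuclear protein-coding genes. With exonic length it was −0.11, −0.22 and −0.34.

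Leaving out single replicates, S100a10 for UK5099 ranged from −0.013 to 0.0021, S100a11 for the combination from −0.0088 to 0.054, S100a14 and S100a16 for combination against butyrate from −0.00077 to 0.092 and from −0.029 to 0.075, and the S100a8 interaction from −0.12 to 0.025. Without UK5099 replicate 1 and combination replicate 1 together, an alternative chosen after seeing the data, the counts of calls were as reported, and S100a10 for UK5099 was 0.0021, S100a11 for the combination −0.0088, and S100a14 and S100a16 for combination against butyrate −0.00077 and −0.029.

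The groups share replicate numbers, but 0 of 18 pairs of same-numbered samples deviated together at r over 0.1 (−0.107 to 0.0294). That gives no sign of pairing, but it cannot show whether same-numbered samples share an origin, which the labels do not give. With the replicate block the members called were 3 for UK5099, 4 for butyrate, 4 for the combination, 1 for the interaction, 2 for combination against butyrate, 4 for combination against UK5099 and 3 for butyrate against UK5099, as without it. Depth limits S100a8 and S100a9 most, at 17 to 39 fragments per vehicle sample.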
